A study of Mus musculus with 2 samples.

Results

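Remote intergenic open regions are stretches of accessible chromatin that lie in no annotated gene and far from any protein-coding promoter. They were taken here from DNase-seq of the mouse frontal cortex, which maps accessible DNA by sequencing the ends that DNase I leaves where nucleosomes do not protect the strand. All samples came from female B6CASTF1/J mice, an F1 cross of C57BL/6J and CAST/EiJ, at 25 days of age, and no treatment or genotype was contrasted. The 1 group held 2 libraries, replicate 1 with 85603 peaks and replicate 2 with 87847 peaks. A merged region counted as shared when a peak of each library overlapped it. A shared region was remote intergenic when its centre lay in no gene of any kind and more than 100 kb from the nearest transcription start site (TSS) of a protein-coding gene. Of 58659 shared regions, 4905 (8.36%) met this rule. Replicate 1 alone gave 7997 such regions and replicate 2 alone 8638. The labels number the libraries as separate biological replicates but give a single donor identifier, so the spread between them is one between samples and need not be one between animals.

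The bulk tissue holds neurons, glia and vessel cells in unknown shares, and a weak region cannot be told apart from a strong region open in few cells. Among 11 marker genes of excitatory and layer neurons, 10 had a promoter open in both libraries (not Fezf2), as had 4 of 8 inhibitory, 3 of 6 astrocyte, 5 of 6 oligodendrocyte-lineage and 2 of 6 microglial and vessel markers. Sst, Vip, Aqp4 and Csf1r were among the markers without one. Over all lists 24 of 37 markers had an open promoter, against 61.1% of all 21938 protein-coding genes. The counts therefore do not tell which cell types were present. With 2 libraries of 1 group no permutation test is possible, and regions of 1 library are not replicates. Classes are therefore compared within each library and by whether the libraries' values overlap, and shares carry exact Clopper-Pearson 95% intervals that cover counting error over regions only. The sequencing depth behind each value is not given in the sources used here.

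Distal open regions include enhancers, silencers and insulators. Enhancers are bound by transcription factors and act on promoters over long distances when the chromatin between them folds. Many developmental and neuronal genes lie in wide gene-poor stretches that hold such elements. The insulator protein CTCF, which halts the cohesin complex as it extrudes chromatin loops, binds many distal sites as well as sites near promoters. Basic helix-loop-helix factors of the NEUROD family, AP-1 factors of the FOS and JUN families and MEF2 factors act at enhancers of cortical neurons.

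The sequences of the 4 strongest remote intergenic regions without exact copies elsewhere are printed first. They show the strong end of the set and not a typical region. Capitals mark the bases that the authors' footprint calls of both libraries cover, where a bound protein may shield DNA from cutting. Coordinates are on mm10, and the letters are those of the GRCm38.p6 reference, the same build, so CAST/EiJ differences are not shown. Regions wider than 300 bp are shown by their central 300 bp.
Clvs1 region, chr4:9135881-9136080, plus strand: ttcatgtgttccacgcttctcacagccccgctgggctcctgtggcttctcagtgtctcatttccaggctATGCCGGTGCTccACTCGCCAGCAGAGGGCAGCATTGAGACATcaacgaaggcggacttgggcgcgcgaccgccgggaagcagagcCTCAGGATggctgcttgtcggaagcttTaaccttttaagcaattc
Myt1l region, chr12:29291021-29291320, plus strand: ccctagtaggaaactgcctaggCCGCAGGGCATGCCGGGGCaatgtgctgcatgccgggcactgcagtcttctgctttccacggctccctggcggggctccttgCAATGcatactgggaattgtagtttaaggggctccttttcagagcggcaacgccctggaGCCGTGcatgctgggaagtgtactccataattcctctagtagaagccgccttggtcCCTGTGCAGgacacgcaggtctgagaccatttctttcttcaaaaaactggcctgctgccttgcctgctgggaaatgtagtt
Smim15 region, chr13:107890061-107890360, plus strand: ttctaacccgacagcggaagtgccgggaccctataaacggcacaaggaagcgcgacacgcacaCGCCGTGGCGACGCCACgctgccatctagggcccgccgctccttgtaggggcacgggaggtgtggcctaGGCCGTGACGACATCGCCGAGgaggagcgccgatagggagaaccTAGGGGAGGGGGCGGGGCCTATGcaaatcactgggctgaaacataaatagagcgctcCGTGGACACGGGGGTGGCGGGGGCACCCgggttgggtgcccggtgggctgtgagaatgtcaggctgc
Zfat region, chr15:68363251-68363550, plus strand: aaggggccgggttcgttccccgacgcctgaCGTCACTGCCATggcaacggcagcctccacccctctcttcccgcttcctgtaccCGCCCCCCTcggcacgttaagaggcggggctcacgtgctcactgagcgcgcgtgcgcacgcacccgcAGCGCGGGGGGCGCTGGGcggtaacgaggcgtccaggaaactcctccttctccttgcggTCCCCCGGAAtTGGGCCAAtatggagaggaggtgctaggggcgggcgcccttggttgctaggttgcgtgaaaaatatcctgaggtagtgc

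The first of these lay 133 kb from the TSS of Clvs1, which encodes a lipid-binding protein of clathrin-coated vesicles, on the side of the chromatin remodeller gene Chd7. Its value was 4.44 in replicate 1 and 6.05 in replicate 2, and footprints of both libraries covered 25% of its bases. The second lay 237 kb from Myt1l, the gene of a neuronal zinc finger repressor, and had 3.70 in replicate 1 and 6.35 in replicate 2. The third lay 154 kb from Smim15 with 3.91 and 5.98, in a stretch whose other flank is the kinesin gene Kif2a. The fourth lay 105 kb from Zfat, a zinc finger gene, with 4.19 and 5.44, and its other flank is Khdrbs3, an RNA-binding regulator of splicing. All 4 were higher in replicate 2 than in replicate 1 and on the shorter peak list of both libraries. Their GC content of 57% to 68.5% in the central 200 bp lay above the 49% median of all remote intergenic regions.

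The Clvs1 region also held a CTCF match. For each of the motifs of CTCF, AP-1, MEF2 and RFX, a strong region without copies that is not among the 4 above is printed next, to show the motif in its place, with capitals for the motif alone.
Zpld1 region, chr16:55469161-55469340, plus strand: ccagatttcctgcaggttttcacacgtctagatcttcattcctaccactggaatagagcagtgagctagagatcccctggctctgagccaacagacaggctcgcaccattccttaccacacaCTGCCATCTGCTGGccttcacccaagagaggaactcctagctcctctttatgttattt
Atp10a region, chr7:58844141-58844400, plus strand: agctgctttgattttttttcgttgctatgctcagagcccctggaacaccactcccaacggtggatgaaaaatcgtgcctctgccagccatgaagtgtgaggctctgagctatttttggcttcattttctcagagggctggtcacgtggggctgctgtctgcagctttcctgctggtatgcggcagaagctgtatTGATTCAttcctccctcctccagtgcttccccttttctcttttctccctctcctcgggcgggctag
Dcn region, chr10:97313701-97313940, plus strand: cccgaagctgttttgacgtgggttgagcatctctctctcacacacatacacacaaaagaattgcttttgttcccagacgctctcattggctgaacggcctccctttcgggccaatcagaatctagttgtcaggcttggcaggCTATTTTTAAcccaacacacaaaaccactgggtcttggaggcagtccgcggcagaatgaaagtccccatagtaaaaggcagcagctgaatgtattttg
Myo3a region, chr2:21918281-21918560, plus strand: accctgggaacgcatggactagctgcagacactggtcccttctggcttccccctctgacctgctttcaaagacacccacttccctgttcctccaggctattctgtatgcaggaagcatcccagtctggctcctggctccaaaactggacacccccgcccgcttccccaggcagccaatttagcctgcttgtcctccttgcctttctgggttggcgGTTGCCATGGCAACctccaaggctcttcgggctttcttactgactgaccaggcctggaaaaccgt

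The Zpld1 region held a CTCF match and lay 171 kb from Zpld1, toward Nfkbiz, the gene of a nuclear inhibitor of NF-kappa-B. Its values were 2.91 in replicate 1 and 3.03 in replicate 2, and footprints of both libraries touched the match. The Myo3a region, 309 kb from this unconventional myosin gene and flanked by the glycine receptor gene Gpr158, held an RFX match that footprints of both libraries touched, with values of 2.19 and 3.11. The Atp10a region lay 186 kb from this phospholipid flippase gene, in the stretch before the imprinted ubiquitin ligase gene Ube3a. It held the AP-1 letters, touched by no footprint of either library, and had 2.39 and 3.23. The Dcn region held a MEF2 match 166 kb from the gene of the matrix proteoglycan decorin, toward Btg1, with 2.37 and 3.32, and only a footprint of replicate 2 touched the match.

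Remote intergenic regions were weaker than open regions nearer to genes. The value of a peak is the authors' read-depth normalized signal, whose scale is not stated. Its median over the remote intergenic regions was 0.486 in replicate 1 and 0.600 in replicate 2, a mean of 0.543 ± 0.080 (SD, n = 2 libraries). Near intergenic regions, which lie in no gene and between 1 and 100 kb from a protein-coding TSS, had 0.785 in replicate 1 and 0.862 in replicate 2. Both values of remote intergenic regions lay below both values of near intergenic ones, so the classes did not overlap between libraries. Genic regions more than 100 kb from a TSS had 0.542 and 0.657, above the remote intergenic regions within each library, by less than the libraries differed from each other. Promoter regions had 1.34 and 1.40. With the shorter peak lists, the remote intergenic regions numbered 2235 and their mean of the library medians was 0.833.

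**Figure D1:**
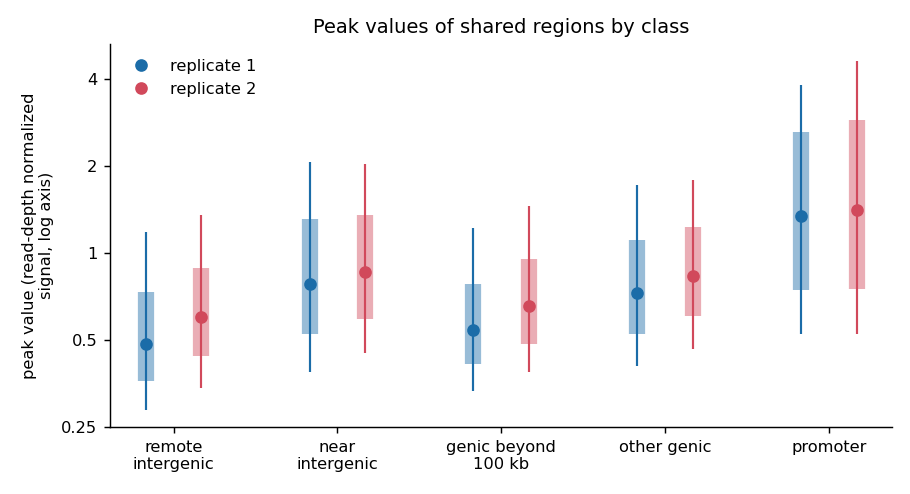
Peak values of shared regions by class (log axis, authors' read-depth normalized signal), with replicate 1 in blue and replicate 2 in red. Dots are medians, thick bars the middle 50% of regions and lines the 10th to 90th percentiles. Remote intergenic medians of 0.486 and 0.600 lie below near intergenic medians of 0.785 and 0.862 and beside the genic ones beyond 100 kb.

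The spread within the remote intergenic regions was wide. Values of replicate 1 reached from 0.0678 to 27.5 and those of replicate 2 from 0.0685 to 19.5, and the middle 50% lay at 0.362 to 0.735 and at 0.440 to 0.891. A value above 1 was reached by 14.01% of remote intergenic regions in replicate 1 and by 19.6% in replicate 2, against 37.0% and 41.0% of near intergenic regions. Above 2 these shares were 2.61% and 3.06% for remote intergenic regions, against 10.8% and 10.5% for near intergenic ones. A strong remote region was thus uncommon in each library, but 131 had a mean value over 2.

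The libraries ordered the remote intergenic regions alike, with more scatter than in near intergenic regions. Spearman's rho between the libraries was 0.815 over the 4905 regions, against 0.874 over near intergenic and 0.908 over all shared regions, given as a description since all points share the same libraries. The value was higher in replicate 2 in 3562 remote intergenic regions (72.6%), against 64.4% of all shared regions. The log2 ratio of replicate 1 over replicate 2 had a median of -0.25 and an SD of 0.43 in remote intergenic regions, against a median of -0.14 and an SD of 0.39 in all shared regions. A difference of more than 2-fold was found in 207 remote intergenic regions (4.22%), against 1.75% of all shared regions.

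**Figure D2:**
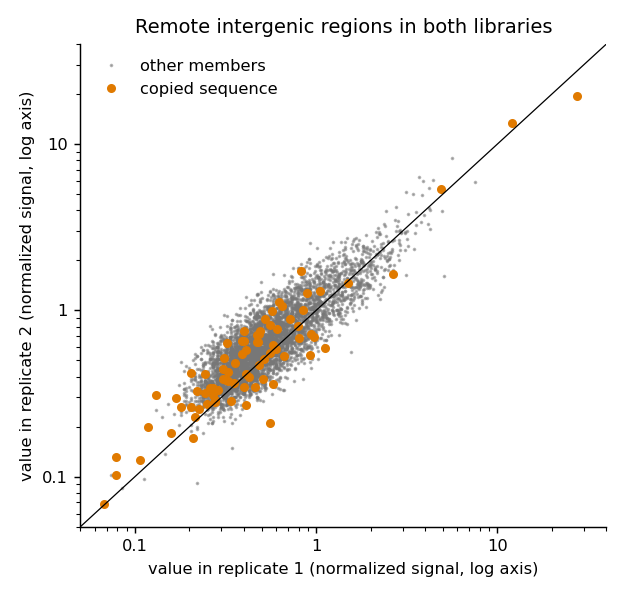
Value of each of the 4905 remote intergenic regions in replicate 1 (horizontal) against replicate 2 (vertical), both on log axes, with the line of equal values. Orange points are the 80 regions made mostly of sequence with exact copies elsewhere, which include the top values of 27.5 and 19.5, while most grey points lie above the line.

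Fewer remote intergenic than near intergenic regions were found again by the other library. Of 11630 merged regions with a remote intergenic position, 42.2% (95% interval 41.3 to 43.1) were called in both libraries, against 52.6% of near intergenic and 66.7% of promoter positions. The share over all 109538 merged regions was 53.6%. Remote positions called in 1 library were weak, with a median value of 0.288 over 3064 regions of replicate 1 and of 0.331 over 3661 regions of replicate 2. The remote intergenic set is thus the stronger portion of what each library called there.

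The authors' shorter peak list of each library, which the rule did not use, held fewer of the remote intergenic regions. Both shorter lists held 2249 of the 4905 (45.9%, 95% interval 44.5 to 47.3), against 59.5% of all shared regions. Near intergenic regions reached 57.2% (56.3 to 58.0) and promoters 75.6%, while genic regions beyond 100 kb stood at 41.2% (39.3 to 43.0). Per library, 56.4% of remote intergenic regions were on the shorter list of replicate 1 and 61.0% on that of replicate 2, against 68.6% and 68.7% of near intergenic regions.

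A footprint of both libraries lay in 3774 remote intergenic regions (76.9%, 95% interval 75.7 to 78.1), against 84.6% of all shared regions and 87.2% of near intergenic regions. Per 100 bp, remote intergenic regions held 0.857 footprints of replicate 1 and 0.821 of replicate 2, against 1.07 and 0.985 in near intergenic regions. The share with a footprint moved with the value. Among regions with a mean value up to 0.5 it was 54.0% in remote and 55.4% in near intergenic regions, and between 0.5 and 1 it was 91.1% and 88.8%. Above a value of 1 nearly every region had a footprint, with 99.2% of the remote intergenic regions from 1 to 2. At equal value the remote regions were therefore not below the near ones in the bin from 0.5 to 1, which holds 42.0% of them.

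Within the remote intergenic set, value fell off with distance. The median distance to a protein-coding TSS was 222 kb, the middle 50% lay at 147 to 374 kb, and 127 regions were more than 1000 kb away. From 100 to 150 kb the median value was 0.559 in replicate 1 and 0.665 in replicate 2 over 1300 regions. From 300 to 500 kb it was 0.458 and 0.571 over 982 regions, and beyond 1000 kb it was 0.345 and 0.451. In replicate 1 each distance bin lay below the one before it. In replicate 2 the bin from 200 to 300 kb (0.605) was slightly above that from 150 to 200 kb (0.597). The libraries differed within each bin by more than neighbouring bins did within a library, with replicate 2 the higher in every bin. Genic regions from 100 to 150 kb had 0.576 and 0.708, and from 300 to 500 kb 0.508 and 0.622, above the intergenic value of the same library in both bins. In the other bins genic regions were also higher in each library, except for equal values of 0.542 in replicate 2 from 500 to 1000 kb.

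**Figure D3:**
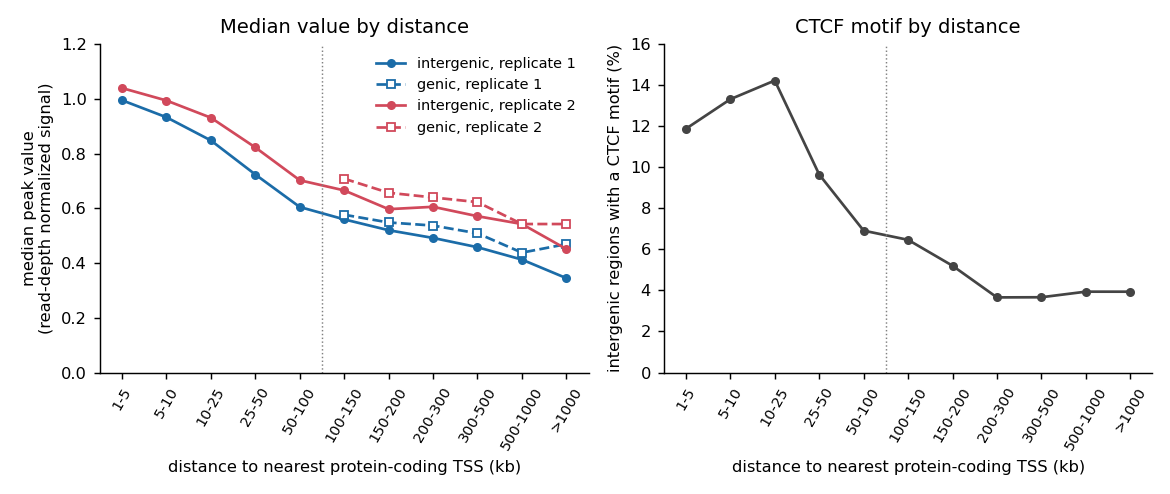
Left, median peak value by distance to the nearest protein-coding TSS for intergenic regions (solid lines) and, beyond 100 kb, genic regions (dashed), with replicate 1 in blue and replicate 2 in red; the dotted line is the 100 kb limit. Right, percentage of intergenic regions whose central 200 bp hold a CTCF motif, which was 14.2% from 10 to 25 kb and 3.94% beyond 1000 kb.

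The 100 kb limit cut through a continuum. From 50 to 100 kb the near intergenic regions had medians of 0.605 in replicate 1 and 0.702 in replicate 2, close to the first bin beyond the limit. Just inside the remote set were a region 100007 bp from Ralgapa2 (0.882 and 0.668), one 100008 bp from the homeobox gene Irx4 (1.38 and 1.30) and one 100012 bp from 4933402E13Rik (0.384 and 0.371). Just outside it were regions 99981 bp from Cct6b (0.424 and 0.542), 99949 bp from Vwc2 (0.288 and 0.297) and 99845 bp from Rgs2 (0.333 and 0.714).

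The regions furthest from any protein-coding gene lay in a handful of deserts. The most distant, at chr14:91289121-91289360, was 2597 kb from Pcdh9, a protocadherin gene, in the 5414 kb between Pcdh20 and Pcdh9. It was weak in both libraries, with 0.153 in replicate 1 and 0.274 in replicate 2. The next 3 lay in the 4519 kb between Celf4, an RNA-binding splicing regulator of neurons, and Pik3c3, a phosphoinositide kinase gene. Of these the region 2195 kb from Pik3c3 had 1.67 in replicate 1 and 1.58 in replicate 2, above the third quartile of the remote intergenic set in each library. The fifth lay 2140 kb from the cadherin gene Cdh20 and was strong, with 7.53 and 5.90, but 40.7% of its 31-base words occur more than once in the genome.

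Remote intergenic sequence makes up 747.3 Mb, 28.2% of the genome, and held 6.56 shared regions per Mb. Near intergenic sequence held 18.7 per Mb and genic sequence 28.8 per Mb. On the autosomes the density ran between 5.85 remote intergenic regions per Mb on chromosome 1 and 10.4 on chromosome 13, with chromosomes 7 and 9 at 10.1 and 9.68. The X chromosome held 2.09 per Mb, with medians of 0.384 in replicate 1 and 0.445 in replicate 2 over its 115 regions. Its density of all shared regions, 8.52 per Mb, was also below that of every autosome, which had 18.7 to 35 per Mb. The Y chromosome, which holds 56.3 Mb of the remote intergenic sequence, had 8 remote intergenic regions although the labels give female mice. All 8 were mostly repeat-masked, and 7 were mostly made of 31-base words found more than once in the genome.

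Wider gaps between genes held fewer open regions per Mb. Among autosomal gaps between neighbouring protein-coding TSS, those up to 500 kb held 14.4 remote intergenic regions per Mb of remote sequence and those of 500 to 1000 kb held 10.7. Gaps of 1000 to 2000 kb held 6.72 and wider ones 3.16 per Mb. Each of the 81 autosomal gaps wider than 2000 kb, with 195.3 Mb of remote sequence in all, held at least 1 such region. Of the 841 narrowest, with 74.4 Mb in all, 387 held none, but a narrow gap had on average far less remote sequence. Autosomal gaps with an open promoter on both sides held 8.04 per Mb, those with 1 open side 6.85 and those with none 6.31.

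**Figure D4:**
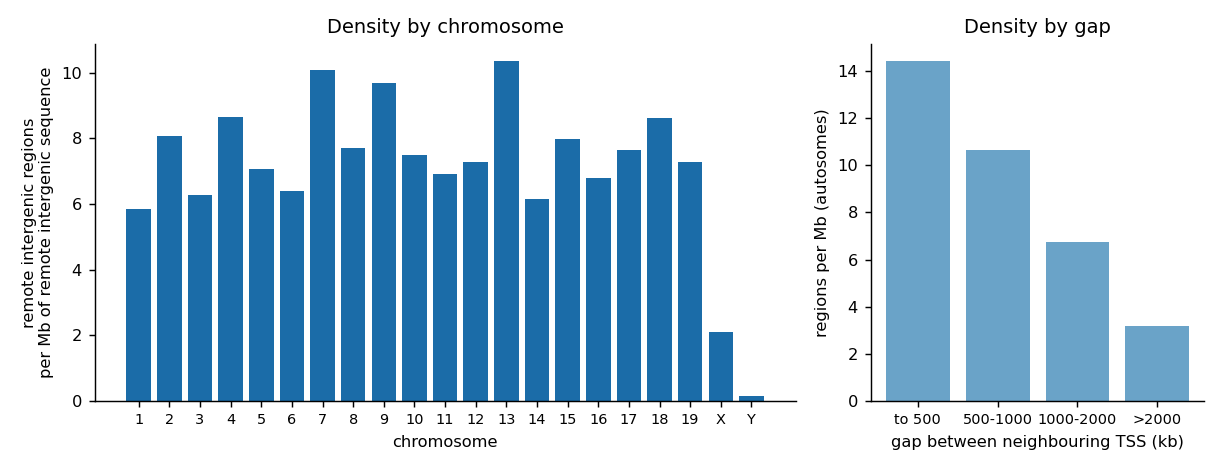
Left, remote intergenic open regions per Mb of remote intergenic sequence on each chromosome, with 2.09 on X below the 5.85 to 10.4 of the autosomes. Right, the same density in autosomal gaps between neighbouring protein-coding TSS, by width of the gap in kb, from 14.4 in gaps up to 500 kb to 3.16 in the widest.

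The sequence of remote intergenic regions was less rich in GC than that of other open regions, but richer than its surroundings. The median GC content of the central 200 bp was 49%, against 51.5% in near intergenic regions, 50% in genic regions beyond 100 kb and 64% in promoters. Remote intergenic sequence as a whole had 39.1% GC. The median number of CpG dinucleotides was 3 in remote intergenic regions, 4 in near intergenic ones and 15 in promoters, and 10.5% of remote intergenic regions had none, against 5.02% of near ones. Repeats masked in the reference took up 8.70% of the central bases of remote intergenic regions, against 44.7% of remote intergenic sequence. How the authors treated reads from repeated sequence is not given in the sources used here, and its part in this difference was not tested. The median width was 220 bp, as in near intergenic regions.

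Remote intergenic regions held the CTCF motif at a lower share than near intergenic ones, and the AP-1, CAGATG and TAATTA motifs at higher shares. Each motif was searched as a consensus on both strands in the central 200 bp, and a match is a description of letters, not a bound site. The CTCF motif was found in 231 remote intergenic regions (4.71%, 95% interval 4.13 to 5.34), against 11.1% of near intergenic regions, 4.37% of genic regions beyond 100 kb and 6.11% of all shared regions. The AP-1 motif TGANTCA was found in 14.5% of remote intergenic regions (13.5 to 15.5), against 11.5%, 14.9% and 9.44% in the same classes. The E-box CAGATG, which NEUROD factors bind, was found in 28.5% (27.3 to 29.8), against 22.5%, 27.9% and 19.04%. The homeodomain motif TAATTA was found in 4.06% (3.52 to 4.65), against 2.97%, 3.73% and 2.28%. In each of these the genic regions at the same distance lay within the interval of the remote intergenic regions, and the near intergenic regions outside it. The CTCF share moved with the peak lists used: it was 8.01% among the remote intergenic regions of the shorter lists and 2.80% among those called from replicate 2 alone.

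Several other motifs of distal elements were also found at higher shares in remote than in near intergenic regions. The E-box CAGCTG was found in 21.5% of remote intergenic regions, against 18.2% of near intergenic and 17.3% of all shared regions, and the TEAD motif GGAATGT in 3.53%, against 2.73% and 2.58%. The POU motif ATGCAAAT was found in 1.90%, against 1.34% and 1.146%, and the MEF2 motif in 2.81% (2.37 to 3.31), against 2.38% and 1.78%. The SOX motif AACAATG was found in 2.49% of remote intergenic regions, against 2.11% of near intergenic and 1.72% of all shared regions. For the FOX motif TGTTTAC these shares were 2.53%, 2.12% and 1.90%, and for the motif AGATAAG of erythroid and endothelial factors of the GATA family 1.73%, 1.57% and 1.27%. In MEF2, SOX, FOX and GATA the near intergenic share lay inside the interval of the remote one. Other motifs had lower shares in remote than in near intergenic regions. The E-box CACGTG was found in 3.71% of remote intergenic regions (3.20 to 4.28), against 4.62% of near intergenic and 5.52% of all shared regions. The cyclic AMP response element TGACGTCA was found in 0.306% (0.171 to 0.504), against 0.582% and 1.18%. The RFX motif was found in 0.469% (0.297 to 0.703), against 0.614% and 0.597%, and the EGR motif GCGTGGGCG in 0.143% (0.0574 to 0.294), against 0.268% and 0.545%, with both near shares inside the intervals. The SP/KLF motif GGGCGGG was found in 2.92% of remote intergenic regions, against 5.99% of near intergenic regions, 33.2% of promoters and 14.5% of all shared regions. The ETS motif CCGGAAGT was found in 7 of them (0.143%), against 4.63% of promoters and 1.81% of all shared regions. The REST motif, bound by a repressor of neuronal genes, and the CEBP motif TTGCGCAAT were found in none of the 4905, for which 3 regions of the total, a one-sided limit unlike the 2-sided intervals above, give a share of up to 0.0612%, against 0.0273% and 0.0307% of all shared regions.

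**Figure D5:**
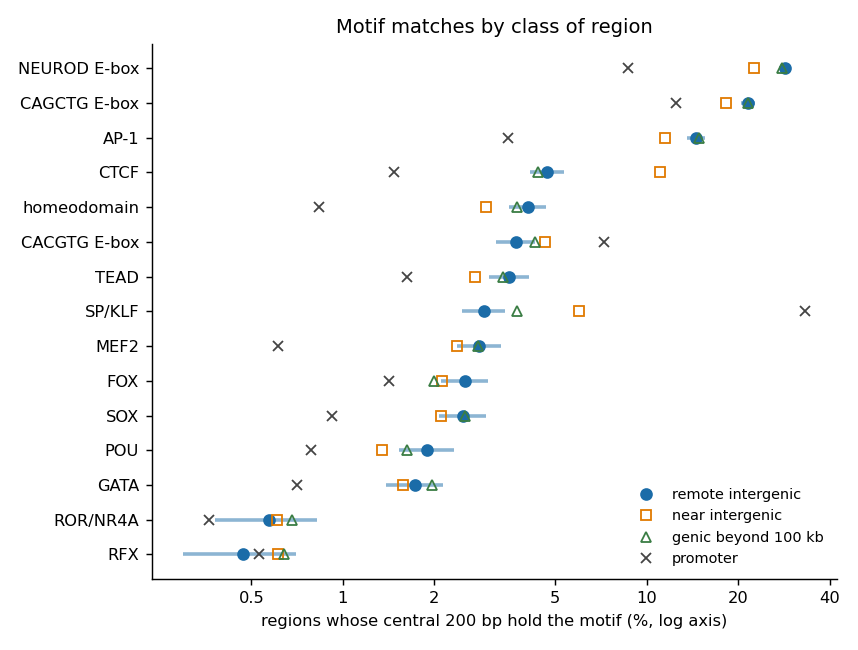
Percentage of regions whose central 200 bp hold each motif (log axis), with the exact 95% interval of the remote intergenic share as a blue bar. Remote intergenic regions (blue) lie close to genic regions beyond 100 kb (green); CTCF is at 4.71% against 11.1% in near intergenic regions (orange), and SP/KLF at 2.92% against 33.2% in promoters (crosses).

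Some matches overlap each other. The CTCF consensus can contain CAGATG, and 34 remote intergenic regions held overlapping matches of both, but just 27 of the 1399 regions with CAGATG had it inside a CTCF match alone. AP-1 overlapped CAGATG in 21 regions and CAGCTG in 17. Base composition moved with the classes too. At 35 to 40% GC the share with TAATTA was 8.81% in remote and 10.3% in near intergenic regions, and at 45 to 50% it was 3.56% and 4.02%. At 40 to 45% GC it was 6.35% in remote and 5.82% in near intergenic regions, and at 50% or more 3.05% and 1.80%. The higher TAATTA share of remote intergenic regions was therefore not there in all GC ranges. The CTCF share was 8.18% in remote and 22.5% in near intergenic regions at 35 to 40% GC, 7.29% and 14% at 40 to 45%, 4.25% and 11.8% at 45 to 50%, and 3.71% and 9.88% at 50% or more. In each of these ranges it was lower in remote intergenic regions.

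Regions with a CTCF motif were stronger than the rest of the remote intergenic set. Their median value was 0.961 in replicate 1 and 0.914 in replicate 2, while regions without the motif had 0.480 and 0.594. The shorter lists of both libraries held 77.5% of regions with the motif and 44.3% of those without it. Near intergenic regions with the motif had 1.34 in replicate 1 and 1.19 in replicate 2, above the remote ones. The share with the CTCF motif moved with the value. In remote intergenic regions it was 1.61% up to a mean value of 0.5, 4.61% from 0.5 to 1, 11.99% from 1 to 2 and 17.6% above 2. In near intergenic regions the shares in the same bins were 2.67%, 7.36%, 17.9% and 21.5%, higher in each. Distance moved with it as well: the share was 6.46% from 100 to 150 kb, 5.20% from 150 to 200 kb, and between 3.66% and 3.94% in each bin beyond 200 kb.

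AP-1 motifs went the other way. Remote intergenic regions with TGANTCA had medians of 0.452 in replicate 1 and 0.588 in replicate 2, and those without it had 0.497 and 0.605. The motif was found in 15.8% of regions with a mean value up to 0.5 and in 9.16% of those above 2. Near intergenic regions showed 15.01% and 5.004% in the same bins.

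Footprints lay over CTCF matches far more often than over other letters. In remote intergenic regions a footprint of replicate 1 overlapped 95.7% of the 231 CTCF matches and one of replicate 2 overlapped 91.3%, against 22.4% and 21.5% of all 14 bp windows of the same regions. For the RFX motif the shares were 65.2% and 60.9% of 23 matches. The AP-1 motif was overlapped in 17.2% and 16.5% of 807 matches, close to the 16.8% and 16.2% of all 7 bp windows. For SP/KLF the shares were 42.0% and 41.4% of 174 matches, for CAGATG 24.7% and 25.4% of 1671, and for MEF2 18.8% and 13.8% of 138.

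The nearest protein-coding genes were mostly ones with an open promoter. The 4905 remote intergenic regions had 1596 different nearest genes, of which 1208 (75.7%, 95% interval 73.5 to 77.8) had a promoter open in both libraries. The share was 69.8% (68.7 to 70.9) among the nearest genes of near intergenic regions, 83.5% among those of genic regions beyond 100 kb and 61.1% among all 21938 protein-coding genes. Only 2931 genes are nearest to any remote intergenic sequence, and their share with an open promoter is not given here. The regions were spread unevenly over genes: 577 genes were nearest to 1 region and 332 to 5 or more, and these 332 took 50.5% of all remote intergenic regions.

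The genes with most remote intergenic regions were a mixed group. Celf4 and Zfat had 18 each. The neurodevelopmental gene Auts2, Castor2, an arginine-sensor family gene on its far side, and the zinc finger gene Zfp608 had 17 each, and Khdrbs3 had 16. Dad1, of the oligosaccharyltransferase complex, the lysosomal enzyme gene Galc and the ciliary gene Nphp4 had 15 each. Btbd3, which shapes cortical dendrites, the potassium channel gene Kcnj2, the matrilin gene Matn1, Rapgef2, the corepressor gene Tbl1xr1 and the xylosyltransferase gene Xylt1 had 14 each. The calcium pump gene Atp2b1, Gm9195, Pik3c3, Tox3 and Tshz3 had 13 each. Of these 20 genes, 17 had an open promoter in both libraries, all but Matn1, Gm9195 and Tox3. The amount of remote sequence they border differed widely: Matn1 had 44.9 regions per Mb and Nphp4 38.8, while Pik3c3 had 5.73 and Celf4 9.46.

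The values near these genes differed too. The 14 regions of Tbl1xr1 had medians of 0.881 in replicate 1 and 1.06 in replicate 2, both above the third quartile of the remote intergenic set, and 11 of them were on both shorter lists. Its strongest, 141 kb away, had 2.69 and 2.64. The 15 regions of Galc had medians of 0.356 and 0.428, both below the first quartile. The 17 of Auts2 had 0.401 in replicate 1 and 0.651 in replicate 2, which lie on opposite sides of the median of each library.

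Genes of neuronal and glial functions were taken from lists, and are set beside all protein-coding genes. Of these, 2931 are the nearest gene of some remote intergenic sequence. Of the 2931 genes, 1596 (54.5%, or 7.28% of all genes) were nearest to at least 1 remote intergenic region, at 6.56 regions per Mb in all. This density includes 56.3 Mb of the Y chromosome at 0.142 per Mb and 55.1 Mb of X at 2.09 per Mb. Single autosomes had 5.85 to 10.4 per Mb, so a list above 6.56 need not be above the autosomes. Of 41 cortical and neuronal transcription factor genes, 31 bordered remote sequence and 24 of these were nearest to such a region, with 96 regions at 6.84 per Mb of their remote sequence. The list's leading genes were Tshz3 (13 regions), Tle4 (10), Zeb2 (8) and Pou3f3 (7). The strongest region near Pou3f3, a POU factor of upper-layer neurons, was 683 kb away with 1.28 in replicate 1 and 1.84 in replicate 2. The strongest near Tle4, a corepressor of deep-layer neurons, was 438 kb away with 1.01 and 1.35.

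Adhesion and synapse organiser genes bordered much remote sequence with few open regions in it. Of 52 such genes 44 bordered remote sequence and 37 were nearest to a remote intergenic region, with 141 regions in 56.5 Mb, or 2.497 per Mb. All autosomal gaps wider than 2000 kb together held 3.16 per Mb, and the part of gap width in the density of this list was not tested. The medians of the 141 regions, 0.379 in replicate 1 and 0.480 in replicate 2, were below those of the whole remote intergenic set. The leading genes were the cadherin gene Cdh11 (12 regions), the teneurin gene Tenm4 (11), Cdh8 (9) and Flrt2 (8). The strongest region near Cdh8 lay 1356 kb from it and had 1.49 in replicate 1 and 1.04 in replicate 2. The strongest near Flrt2 had 0.418 and 0.531.

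Axon guidance genes had 3.96 regions per Mb, with 56 regions near 14 of the 22 genes (of 24) that bordered remote sequence, led by the ephrin receptor gene Epha7 (10 regions). Its strongest, 514 kb away, had 1.38 in replicate 1 and 2.56 in replicate 2, and the strongest of the ephrin gene Efna5, 131 kb away, had 0.921 and 2.55. The Efna5 region thus differed more than 2-fold between the libraries. Ion channel and receptor genes had 4.00 per Mb, with 47 regions near 18 of the 29 genes (of 39) that bordered remote sequence. The cannabinoid receptor gene Cnr1 had 6, the strongest 188 kb away with 1.32 and 1.96, and the AMPA receptor gene Gria1 had 5, the strongest with 0.412 and 0.794.

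Immediate early genes, which neuronal activity induces within minutes, were listed together with other genes related to activity. The genes of this list bordered little remote sequence. Of the 16 genes 6 did, with 1.04 Mb in all, and 4 of these 6 were nearest to 5 remote intergenic regions, 4.799 per Mb. Nr4a3 had 2, and Bdnf, Nptx2 and Nr4a2 had 1 each. The Nptx2 region, 102 kb away, had 0.972 in replicate 1 and 1.496 in replicate 2. The Bdnf region, 172 kb from this neurotrophin gene, had 0.373 and 0.320. The same 16 genes were nearest to 53 near intergenic regions.

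Astrocyte and oligodendrocyte-lineage genes had 29 regions near 6 of the 7 genes (of 14) that bordered remote sequence, 14.7 per Mb over 1.98 Mb. All autosomal gaps up to 500 kb together held 14.4 per Mb, and the part of gap width in the density of this or the other lists was not tested. Sox9, a glial transcription factor, had 9, the strongest 312 kb away with 0.876 in replicate 1 and 1.51 in replicate 2. Id4 had 7 and Sox6, which acts in oligodendrocyte precursors and interneurons, had 6, the strongest 381 kb away with 1.48 and 1.45. The gap junction gene Gja1 had 4. Microglial and vessel genes bordered 0.163 Mb of remote sequence, with 4 regions near the endothelial receptor gene Kdr and 1 near the collagen gene Col1a2. The Kdr regions had values of 0.401, 1.77, 0.848 and 1.27 in replicate 1 and of 0.508, 1.51, 1.32 and 1.55 in replicate 2, in order along the chromosome, and all 4 were on both shorter lists. All but the first were above the third quartile of the remote intergenic set in both libraries.

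Developmental factor genes of other regions and organs also had remote intergenic regions in this tissue. Of 31 such genes 16 bordered remote sequence, and 12 were nearest to 39 regions, 8.61 per Mb, with medians of 0.469 in replicate 1 and 0.565 in replicate 2. Irx1 had 7, Foxa2, a floor plate and endoderm factor, 6, and Tbx3, a limb and heart factor, 6. The list also held Apob, the apolipoprotein gene of liver rather than a developmental factor, which had 5. The promoters of Irx1 and Foxa2 were not open in both libraries, while those of Tbx3 and Apob were. The nearest gene need not be the gene that a region acts on, and no contact data were used here. Olfactory and vomeronasal receptor genes were nearest to 16 remote intergenic regions (0.326%), against 0.324% of all shared regions and 0.810% of near intergenic regions. Of the 16, 8 were in copied sequence, against 20 of the 190 among all shared regions.

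Remote intergenic regions lay both singly and in groups. With remote intergenic regions joined when their centres lay within 50 kb of the next, they formed 2927 groups. Open regions of other classes were not counted in this, so a single region may have another open region close by. No level for regions placed at random is given here. Of all remote intergenic regions, 1906 (38.9%) were on their own in a group. Groups of 5 or more numbered 123 and took in 790 regions (16.1%). The largest had 16 regions over 223 kb between Matn1 and the receptor phosphatase gene Ptpru, at chr4:131208221-131431540. Its medians were 0.661 in replicate 1 and 0.851 in replicate 2, its strongest region reached 1.98 and 1.73, and none held a CTCF motif. Groups of 13 lay between Gm31371 and Gm15319 and beside Nphp4, and one of 12 between Ntm, a neural adhesion gene, and Snx19, with medians of 0.805 and 1.06. Groups of 11 lay beside Hivep2 and Diras2, one of 10 beside Cryba4 and one of 9 beside Rplp1.

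The Hivep2 group was the most compact of these 8, with 11 regions in 37.3 kb, 213 to 250 kb from this zinc finger gene, which is linked to intellectual disability in humans. Along the chromosome their values in replicate 1 were 0.729, 0.655, 1.23, 0.966, 0.593, 0.412, 1.56, 0.729, 1.85, 0.819 and 0.831. In replicate 2 they were 0.697, 0.737, 1.00, 1.38, 0.674, 0.628, 1.75, 0.954, 2.27, 0.862 and 0.537. The same regions led in both libraries, the ninth with 1.85 and 2.27 and the seventh with 1.56 and 1.75. None held a CTCF motif.

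A number of remote intergenic regions lay at or in annotated non-coding loci. Within 1 kb of the 5' end of an annotated non-coding gene lay 169 of them (3.45%), with medians of 0.627 in replicate 1 and 0.737 in replicate 2, and 61.5% of these were on both shorter lists, against 45.9% of the whole set. RefSeq, an annotation the rule did not use, placed 547 (11.2%) in a long non-coding RNA gene and 49 (0.999%) in a protein-coding gene, so the intergenic label depends on the annotation for these.

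The very highest values belonged to copied sequence. Of all remote intergenic regions, 80 (1.63%) had at least 50% of their 31-base words more than once in the genome. This share was 1.76% in near intergenic regions and 1.12% in all shared regions. Reads cannot be placed with certainty in such sequence, and how the authors treated them is not given in the sources used here. The strongest region, at chr3:5860361-5860530, 110 kb from Gm8797, had 27.5 in replicate 1 and 19.5 in replicate 2, and 100% of its words were copied, up to 15 times. The second, at chr8:20122141-20122300 between Gm31371 and Gm15319, had 12.1 and 13.4 with 80% copied. The sixth, 119 kb from the vomeronasal receptor gene Vmn1r238, had 4.86 and 5.39 with 72.7% copied. The third, 390 kb from Atp23 toward Lrig3, had 5.60 and 8.26 with 17.9% copied. Of the other regions in the top 10, the one between A1bg and the oncogene Myc, 235 kb from A1bg, had no copied word and values of 4.97 and 3.95. Without the 80 copied regions the median values were 0.492 in replicate 1 and 0.605 in replicate 2, so copied sequence set the maximum and not the middle of the set.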

How the data were processed

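DNase-seq was done on nuclei of mouse frontal cortex, per the labels, and 1 group of 2 libraries was analysed. The authors deposited a longer and a shorter peak list and a footprint list per library on mm10, called per library per the text files deposited with them. The deposited peak value is a signal, read-depth normalized per those files on a scale that is not stated. The deposited footprint lists carry 1 other number, a constant of 0.01, and positions alone were used. The sources used here give no aligner, peak caller, tool version or depth.

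Peaks of the longer lists were merged where they overlapped by at least 1 bp, with 85603 peaks in replicate 1 and 87847 in replicate 2, and a merged region took the highest value of each library. The shorter lists hold 47874 and 50077 peaks. Genes, TSS and sequence came from GENCODE vM21 on GRCm38.p6, and RefSeq genes of the same assembly were a second annotation. A promoter region had its centre within 1 kb of a TSS of any transcript of a protein-coding gene, and a promoter was open when a shared region overlapped that 1 kb on either side. GC content, repeats and 22 motifs were read in the central 200 bp, a motif counting where its whole match lay there. Exact copies were counted as 31-base words on both strands over 21 chromosomes.

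The regions named were the 10 with the highest mean value, the 5 furthest from a TSS and 3 on each side of the limit. The genes named were the 20 nearest to most regions and up to 4 per list of 8 lists. Groups named were the 8 with most regions, joined within 50 kb. Regions printed were the strongest without copies. The members, lists and motifs were chosen with earlier results of these data known. The word count was tested on simulated sequence. Python 3.11.15, numpy 2.4.6, pandas 2.3.3, scipy 1.17.1, numba 0.67.0 and matplotlib 3.10.9 were used. No test across regions was made.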

Additional observations from a re-analysis of the deposited data

How the results depend on the processing

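No paired analysis was possible because there is 1 group. Over 6 results and 53 alternatives, 24 moved by less than the library spread, the counting interval or, for the number of regions, 1.5 times, and 29 moved by more. Each alternative changes which regions are counted. With the shorter peak lists there were 2235 remote intergenic regions, with a median value of 0.833, a footprint of both libraries in 94.8%, 49.5% GC and a CTCF motif in 8.01%. With a limit of 50 kb there were 7698, with 47.5% on both shorter lists, footprints in 78.7%, 49.5% GC and CTCF in 5.51%. With a limit of 200 kb there were 2759, with 44.2%, 74.9%, 48.5% GC and 3.73% for the same measures. Requiring an overlap of at least 50% of both peaks gave 53.7% on both shorter lists, footprints in 82.8% and CTCF in 5.86%. Peaks of 1 library alone gave 7997 to 8638 regions, a median value of 0.390 to 0.451, 37.8% to 40.3% on that library's shorter list, footprints in 70.7% to 70.8%, 48.5% to 49% GC and CTCF in 2.80% to 3.40%. Counting the 5' end of each gene alone as its TSS, protein-coding genes alone as genes, or no copied regions moved none of the 6 results by more than these limits. Values of weak regions are limited by depth, which is not known here, and cell types cannot be separated in bulk tissue.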
